A study of Mus musculus with 8 samples.

Results

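The transcripts of the mouse mitochondrial genome were taken as every gene of the deposited table whose name starts with mt-. The rule gave 37 of 55157 genes, of which 13 encode proteins, 2 encode ribosomal RNAs (rRNAs) and 22 encode transfer RNAs (tRNAs). The study profiled type 7 to 8 follicles, a morphological stage of ovarian follicle growth, from Kunming mice, an outbred stock, at postnatal day 21. Melatonin follicles (n = 4) were taken 24 hours after an injection of pregnant mare serum gonadotropin (PMSG, which acts like follicle-stimulating hormone) with melatonin, and control follicles (n = 4) 24 hours after PMSG with normal saline, so PMSG is common to both groups. The title of the series concerns melatonin downstream of follicle-stimulating hormone and mitochondrial function in oocytes. The labels give no melatonin dose, and do not say whether replicates were separate animals or pools, and the spread behind the p-values below may therefore be technical in part.

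Mitochondria carry a small circular genome whose genes lie nearly end to end on both strands. A nuclear-encoded RNA polymerase copies each strand into long RNAs, which are cut, in large part at the tRNAs that punctuate them, into messenger RNAs (mRNAs), rRNAs and tRNAs. The proteins are core subunits of the respiratory chain and of ATP synthase. Growing oocytes and the granulosa cells around them both hold many mitochondria, and in whole follicles fewer cells of a type and less RNA per cell cannot be told apart.

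Levels are FPKM, the fragments per kilobase of exon that the authors deposited. The libraries held between 17275943 and 22086562 recovered fragments on genes with melatonin, and between 16438490 and 20809511 in control. Of these the 37 genes took 2.34 to 2.83% with melatonin and 2.39 to 3.09% in control. Granulosa markers summed to between 6038 and 6700 FPKM with melatonin and between 7045 and 8844 FPKM in control (8 of 8 markers above 1 FPKM), without overlap. Inha made up 82.6 to 85.6% of this sum. Without Inha, the other 7 genes summed to 943 to 1109 FPKM with melatonin and 1162 to 1511 FPKM in control. Of the 8 genes, 2 separated the groups on their own, where 11.7% of all tested genes did. Nr5a2 went the other way, with a mean of 181 FPKM with melatonin and 171 FPKM in control. Oocyte markers (10 of 10) summed to 340 to 444 FPKM with melatonin and to 351 to 557 FPKM in control. Theca markers (5 of 6) summed to 30.8 to 56.7 FPKM with melatonin and 53.0 to 60.8 FPKM in control. The 4 blood cell markers, with haemoglobin genes among them, summed to 120 to 473 FPKM with melatonin and 63.9 to 1525 FPKM in control. Endothelial markers (3 of 3) summed to 4.13 to 6.63 FPKM with melatonin and to 5.55 to 8.43 FPKM in control, and the smooth muscle pair to 34.3 to 55.4 FPKM with melatonin and to 32.5 to 55.4 FPKM in control. No listed marker was at 0 in all libraries. The Spearman correlation across genes between a library's deviation from the mean and GC content was -0.182 to -0.121 with melatonin and -0.0235 to 0.261 in control. These correlations did not overlap between the groups, so the GC trend and melatonin cannot be told apart. Fold changes after removal of the GC content and length trends of each library are given below. The part of the marker and GC differences in the values below was otherwise not tested.

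The tRNA genes that carry most tRNA fragments, the tRNA gene with the smallest p and an undetected one are shown first, since a tRNA gene is so short that few fragments set its level. Sequences are from the GENCODE M21 transcripts (build mm10), 5′ to 3′ on the strand of the gene, with the anticodon in capitals. mt-Tp (tRNA for proline) lies at chrM:15356-15422 on the minus strand, mt-Tc (cysteine) at chrM:5192-5257 on the minus strand, mt-Tn (asparagine) at chrM:5089-5159 on the minus strand, mt-Tl1 (a leucine tRNA) at chrM:2676-2750 on the plus strand, and mt-Tk (lysine) at chrM:7700-7764 on the plus strand.
mt-Tp: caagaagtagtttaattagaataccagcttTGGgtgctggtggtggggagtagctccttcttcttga
mt-Tc: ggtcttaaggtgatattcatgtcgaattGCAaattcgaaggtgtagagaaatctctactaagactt
mt-Tn: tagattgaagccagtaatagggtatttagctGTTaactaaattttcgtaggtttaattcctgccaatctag
mt-Tl1: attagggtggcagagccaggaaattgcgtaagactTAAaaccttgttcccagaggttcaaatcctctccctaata
mt-Tk: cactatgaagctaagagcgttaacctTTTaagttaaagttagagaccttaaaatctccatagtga

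Part of the mitochondrial genome has a close copy in the nucleus, which bears on how fragments can be assigned. The stretch chrM:6381-11042 (4662 bases) runs in parallel with chr1:24611535-24616197 (4663 bases, minus strand), where the annotation lists 7 unprocessed pseudogenes. Compared with their mitochondrial genes over their own length, 5 of the 7 differ at 0 bases. These are Gm28661 (681 bases, mt-Co2), Gm10925 (678 bases, mt-Atp6), Gm28437 (783 bases, mt-Co3), Gm10222 (294 bases, mt-Nd4l) and Gm28439 (876 of the 1378 bases of mt-Nd4). Gm28438 differs from mt-Nd3 at 1 of 345 bases, and Gm29216 from the end of mt-Co1 at 6 of 492 bases. On chromosome 2, Gm13340 differs from mt-Co1 at 37 of 1545 bases, while Gm13341 holds 224 of the 635 50-base windows of mt-Co2 letter for letter.

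The first bases of mt-Co2 (chrM:7013-7082, plus strand), of its chromosome 1 copy Gm28661 (chr1:24615496-24615565, minus strand) and of Gm13341 (chr2:22587893-22587962, minus strand) show a copy without differences beside a copy with some. Capitals mark the 2 of these 70 bases at which mt-Co2 and Gm13341 differ.
mt-Co2: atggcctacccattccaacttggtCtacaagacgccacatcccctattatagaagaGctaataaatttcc
Gm28661: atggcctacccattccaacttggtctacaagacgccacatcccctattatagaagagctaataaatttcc
Gm13341: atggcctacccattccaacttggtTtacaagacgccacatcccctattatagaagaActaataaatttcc

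The single difference between mt-Nd3 (first bases at chrM:9459-9498, plus strand) and Gm28438 (chr1:24613080-24613119, minus strand) is T3C, counted from 1 at the first base of the gene with the base of mt-Nd3 first, and is in capitals below.
mt-Nd3: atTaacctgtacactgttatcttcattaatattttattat
Gm28438: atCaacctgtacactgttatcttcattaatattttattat

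Genes of this genome also overlap each other. The last 43 bases of mt-Atp8 are the first 43 bases of mt-Atp6, in capitals in the end of mt-Atp8 (bases 135 to 204, chrM:7900-7969, plus strand).
mt-Atp8: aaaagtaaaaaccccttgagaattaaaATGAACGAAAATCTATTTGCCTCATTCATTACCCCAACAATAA

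mt-Nd4l and mt-Nd4 share 7 bases, and mt-Nd5 and mt-Nd6 share 14 bases on opposite strands. Neither the use of strand nor the treatment of fragments that match several places is stated in the sources used here, and levels of overlapping or copied genes are uncertain.

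**Figure D1:**
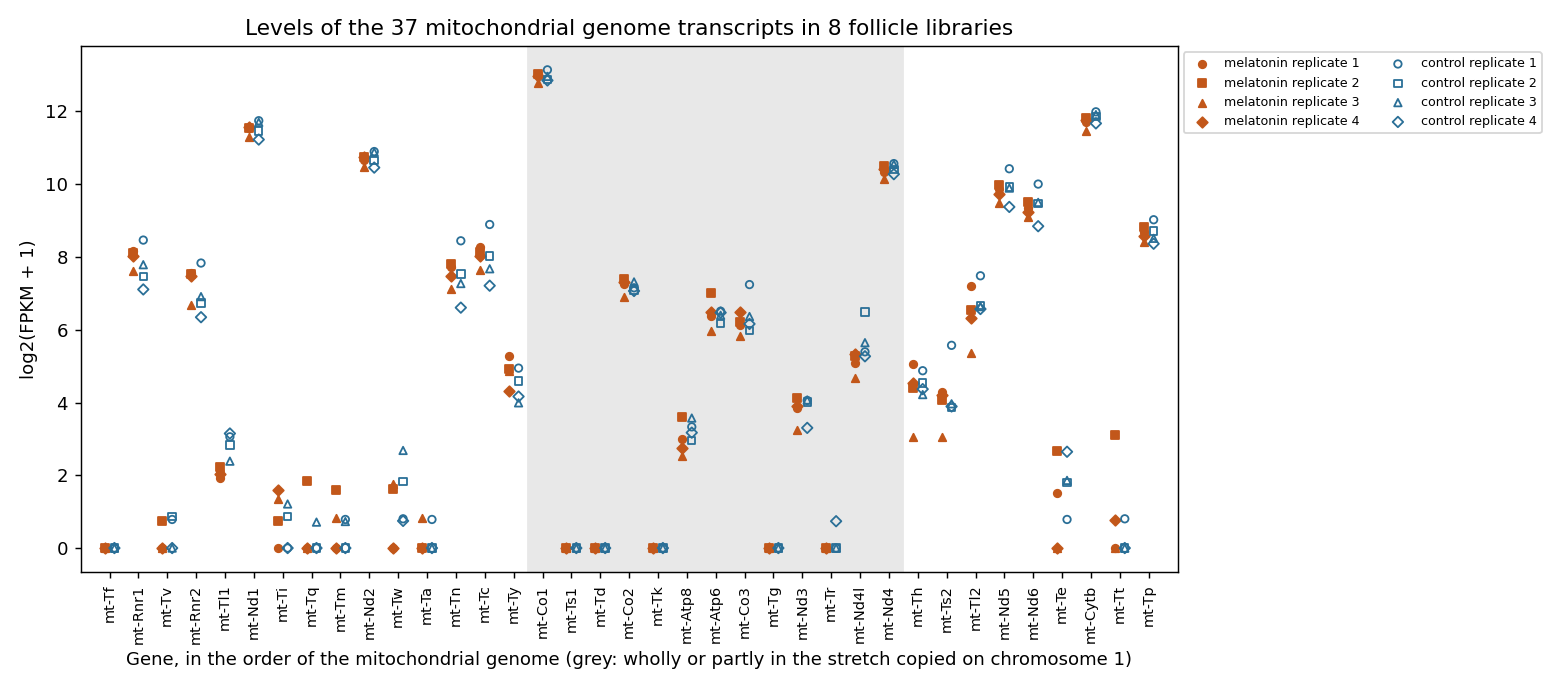
log2(FPKM + 1) of each of the 37 genes (horizontal axis, genome order) in the 4 melatonin libraries (filled symbols) and the 4 control libraries (open symbols); symbol shape gives the replicate number, and grey marks the 13 genes wholly or partly in the stretch copied on chromosome 1. mt-Co1 is at the top, the tRNAs in the grey area lie at or near 0, and the groups overlap for every gene with a mean of at least 1 FPKM but mt-Tl1.

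The protein-coding RNAs were the bulk of the signal and differed widely in level, while the groups overlapped. The 13 genes summed to 19556, 20192, 16540 and 19523 FPKM in melatonin replicates 1 to 4, and to 22831, 19064, 20635 and 17172 FPKM in control replicates 1 to 4. Control replicate 1 was the highest library and melatonin replicate 3 the lowest. The means were 18953 ± 1638 FPKM with melatonin and 19926 ± 2399 FPKM in control (SD, n = 4 each), a log2 ratio of -0.07. The log2 ratio was -0.012 without melatonin replicate 3, -0.0003 without control replicate 1 and -0.14 without control replicate 4.

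By complex, the 7 subunits of complex I, which takes electrons from NADH, summed to 7361 ± 695 FPKM with melatonin and 7888 ± 1325 FPKM in control. mt-Cytb, the sole mitochondrially encoded subunit of complex III, stood at 3309 ± 324 FPKM with melatonin and 3723 ± 341 FPKM in control. The 3 subunits of complex IV, which passes electrons to oxygen, summed to 8186 ± 613 FPKM with melatonin and 8222 ± 798 FPKM in control. The pair of ATP synthase subunits summed to 97 ± 31.0 FPKM with melatonin and 91.7 ± 9.54 FPKM in control (SD, n = 4 each throughout). In each of the 4 complexes the libraries of the groups overlapped.

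mt-Co1, the catalytic subunit of complex IV, had the highest FPKM of all genes in each of the 8 libraries. It stood at 8364, 8300, 7105 and 8091 FPKM with melatonin and at 9053, 7510, 7996 and 7399 FPKM in control. The melatonin values lay within the control range except for replicate 3, which was below it. mt-Co1 made up 38.8 to 43.1% of the summed protein genes over the 8 libraries, and 9 of the 37 genes were among the 100 genes with the highest mean.

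Below mt-Co1 came mt-Cytb, with 3347, 3591, 2847 and 3453 FPKM in melatonin libraries and 4069, 3703, 3857 and 3263 FPKM in control libraries. All melatonin libraries and control replicate 4 lay below the other 3 control libraries. mt-Nd1, a membrane subunit of complex I, had 2969, 2982, 2511 and 3035 FPKM with melatonin and 3435, 2818, 3330 and 2398 FPKM in control. Here control replicates held both the highest and the lowest library. mt-Nd2 averaged 1619 ± 144 FPKM with melatonin and 1704 ± 239 FPKM in control, and mt-Nd5 averaged 877 ± 121 FPKM with melatonin and 990 ± 292 FPKM in control (SD, n = 4 each).

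mt-Nd6, also of complex I, is the protein gene encoded on the opposite strand to the other 12, and averaged 633 ± 77.1 FPKM with melatonin and 730 ± 232 FPKM in control (SD, n = 4 each). Its level relative to its overlapping neighbour mt-Nd5 was steady, with a ratio of 0.704 to 0.759 over melatonin libraries and of 0.692 to 0.761 over control libraries. Because strand use is not stated, reads from mt-Nd6 and reads of the other strand across it cannot be told apart.

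Levels differed by position relative to the copied stretch. The 5 protein genes wholly outside it had means over the 8 libraries of 682 (mt-Nd6) to 3516 FPKM (mt-Cytb), and the 6 wholly inside it of 7.93 (mt-Atp8) to 145 FPKM (mt-Co2), without overlap. mt-Co1 and mt-Nd4, which lie partly inside, averaged 7965 ± 585 and 1310 ± 135 FPKM with melatonin and 7990 ± 755 and 1402 ± 129 FPKM in control. The share of a gene's 50-base windows found letter for letter in transcripts of other genes was 100% for mt-Co2, 99.9% for mt-Co3, 99.5% for mt-Atp6, 98.8% for mt-Nd4l and 98.0% for mt-Nd3. It was 62.2% for mt-Nd4, 51.1% for mt-Co1, 8.19% for mt-Nd2, 7.61% for mt-Nd5 and 0% for mt-Cytb, mt-Nd1 and mt-Nd6. mt-Atp8 also had 0%. Of the annotated transcripts in the chromosome 1 stretch, Gm10925 covers only its last 43 bases, which is shorter than a 50-base window. The search covered annotated transcripts and not the genome between them, so 0% does not mean that the nucleus holds no match. The part of the copies in these levels was not tested.

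**Figure D2:**
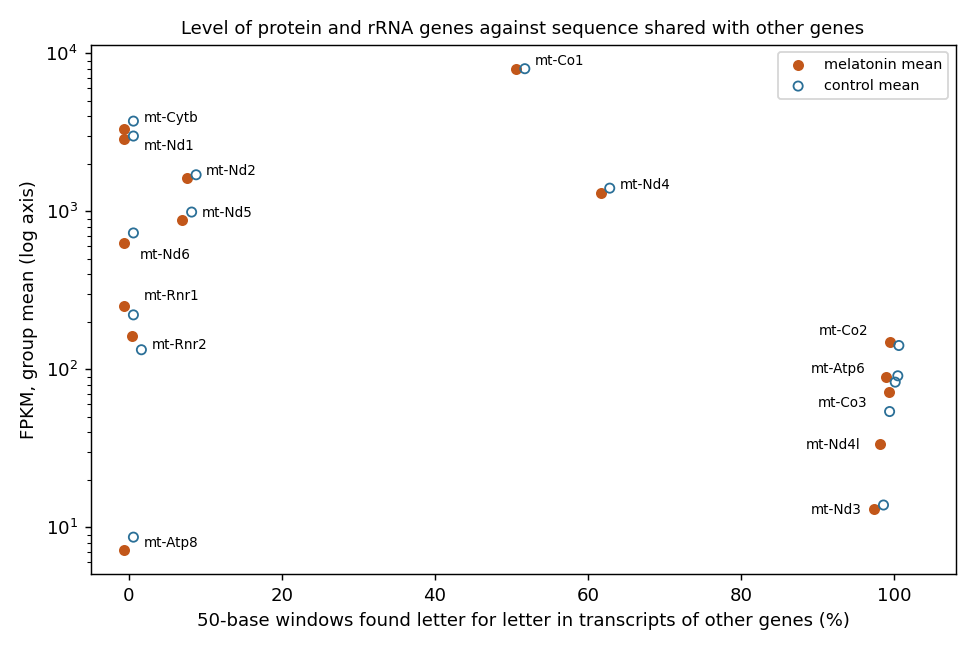
Mean FPKM (vertical log axis) with melatonin (filled) and in control (open) of the 13 protein and 2 rRNA genes, against the percentage of their 50-base windows found in transcripts of other genes (points of the groups are drawn slightly apart sideways). The 5 genes at 98.0% or more lie between 13.1 and 149 FPKM, below mt-Nd4 and mt-Co1 and below the mt-Nd genes at the left. Also at the left, mt-Atp8 is the lowest gene, at 7.18 FPKM with melatonin and 8.68 FPKM in control. mt-Rnr2 there is at 163 FPKM with melatonin and 133 FPKM in control, near mt-Co2.

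The copies were measured as genes of their own. Gm10925 had 82.9, 89.9, 69.6 and 86.7 FPKM with melatonin and 86.2, 107, 86.1 and 70.4 FPKM in control. mt-Atp6, the subunit of the proton channel of ATP synthase that it matches, had 81.6, 129, 61.2 and 87.9 FPKM with melatonin and 90.2, 71.0, 83.3 and 87.7 FPKM in control. The ratio of gene to copy ran from 0.880 to 1.43 with melatonin and from 0.666 to 1.25 in control, so either could be the higher of the pair.

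For mt-Co2, the copper-binding subunit of complex IV, the ratio to Gm28661 was 1.66 to 1.97 with melatonin and 1.89 to 2.01 in control. mt-Co2 itself averaged 149 ± 20.8 FPKM with melatonin and 142 ± 11.7 FPKM in control, and Gm28661 averaged 80.7 ± 11.8 FPKM with melatonin and 72.4 ± 6.89 FPKM in control. The ratio of mt-Co3 to Gm28437 was 1.25 to 1.61 with melatonin and 1.08 to 2.22 in control. For mt-Nd3, the gene with 1 base of difference, the copy had the higher FPKM in every library. The ratio was 0.149 to 0.241 over melatonin and 0.134 to 0.291 over control libraries. That difference is between reference sequences (build mm10), and the bases that the Kunming mice carry were not read. How fragments were divided between mt-Nd3 and Gm28438 was not tested, so the ratio cannot be read as expression of the copy. Gm28438 averaged 66.6 ± 19.9 FPKM with melatonin and 75.0 ± 28.5 FPKM in control.

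mt-Nd4l, a small membrane subunit of complex I, had 33.2, 38.0, 24.5 and 39.7 FPKM with melatonin and 41.0, 88.8, 49.1 and 37.6 FPKM in control. Control replicate 2 stood apart at the top. Its copy Gm10222 had 28.5, 31.5, 19.1 and 30.2 FPKM with melatonin and 34.5, 35.1, 34.1 and 23.0 FPKM in control, and control replicate 2 did not stand apart there. The log2 fold change of mt-Nd4l was -0.60 ± 0.27 (SE; limma, Benjamini-Hochberg adjusted p = 0.265), and -0.34 without control replicate 2.

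mt-Co3, the remaining subunit of complex IV, showed the same kind of single high library. It had 68.9, 73.1, 55.9 and 88.6 FPKM with melatonin and 150 (replicate 1), 62.1, 81.4 and 70.5 FPKM in control. Its log2 fold change was -0.27 ± 0.26 (SE; limma adjusted p = 0.596), and -0.004 without control replicate 1. mt-Atp8, the second mitochondrially encoded ATP synthase subunit, had 7.05, 11.2, 4.76 and 5.76 FPKM with melatonin and 9.06, 6.74, 10.9 and 8.01 FPKM in control. These values rest on 18 to 49 fragments a library with melatonin and 24 to 49 in control.

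Gm28437 averaged 53.0 ± 6.32 FPKM with melatonin and 58.3 ± 6.72 FPKM in control, and Gm28439, the copy of part of mt-Nd4, averaged 18.2 ± 2.52 FPKM with melatonin and 18.4 ± 1.86 FPKM in control. Gm29216, the copy of the end of mt-Co1, averaged 72.5 ± 42.1 FPKM with melatonin and 56.5 ± 3.94 FPKM in control. It had 135 FPKM in melatonin replicate 2 and at most 60.1 FPKM in the other libraries. None of the 7 chromosome 1 copies passed the threshold (limma adjusted p of 0.502 or more).

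The rRNAs, the structural RNAs of the mitochondrial ribosome, were below the mRNAs of the genes outside the copied stretch and varied widely from library to library within control. mt-Rnr1, the small-subunit rRNA (chrM:70-1024), had 285, 274, 193 and 262 FPKM with melatonin and 352, 176, 220 and 137 FPKM in control. mt-Rnr2, the large-subunit rRNA (chrM:1094-2675), had 188, 184, 102 and 176 FPKM with melatonin and 227, 106, 119 and 80.3 FPKM in control. For both, control replicate 1 was the highest and control replicate 4 the lowest of all libraries. The extraction used total RNA, but the kit label does not say whether rRNA was removed or polyadenylated RNA selected. The level of the rRNAs relative to the mRNAs can therefore not be read as that in the follicle cells.

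Summed, the rRNAs came to 416 ± 81.6 FPKM with melatonin and 354 ± 158 FPKM in control (SD, n = 4 each), a log2 ratio of 0.23. This ratio was 0.06 without control replicate 4 and 0.57 without control replicate 1. Relative to the summed protein genes the rRNAs came to 1.79 to 2.42% with melatonin and 1.27 to 2.54% in control. The ratio of mt-Rnr1 to mt-Rnr2 was 1.49 to 1.89 with melatonin and 1.55 to 1.84 in control. The log2 fold changes were 0.27 ± 0.27 for mt-Rnr1 (limma adjusted p = 0.608) and 0.36 ± 0.32 for mt-Rnr2 (SE; adjusted p = 0.567).

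**Figure D3:**
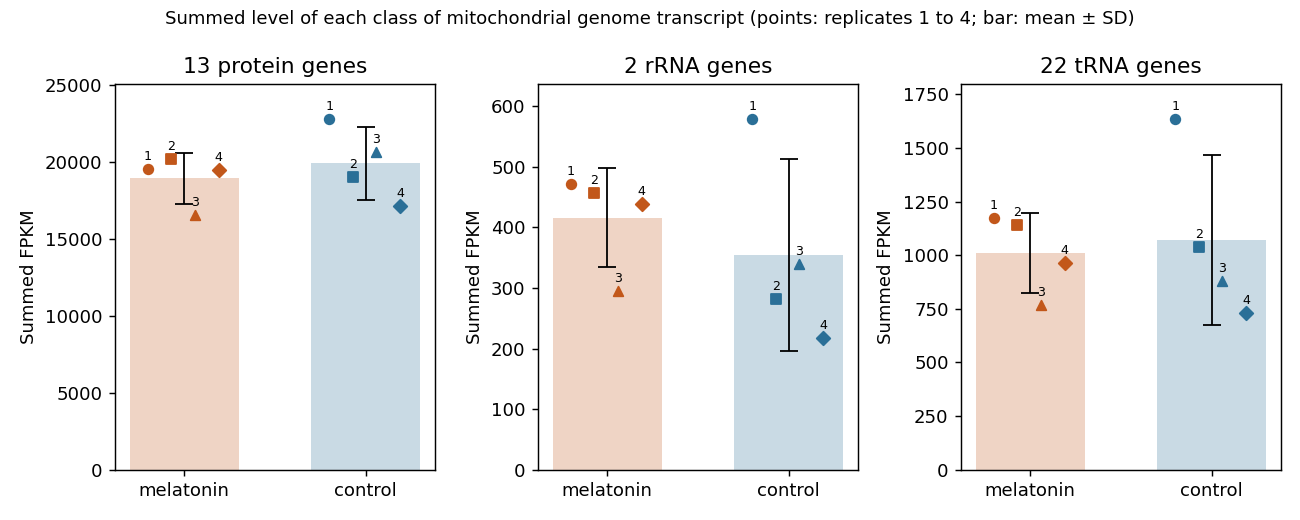
Summed FPKM of each class in every library (points, with replicate numbers) and the group mean with its SD (bar and line), melatonin at the left and control at the right. In all 3 classes control replicate 1 is the highest library, and the groups overlap.

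The tRNA signal came from few genes. The 22 tRNA genes summed to 1174, 1140, 768 and 962 FPKM with melatonin and to 1636, 1036, 882 and 731 FPKM in control. Means were 1011 ± 187 FPKM with melatonin and 1071 ± 397 FPKM in control (SD, n = 4 each), a log2 ratio of -0.08. It turned to 0.20 without control replicate 1, to 0.03 without melatonin replicate 3, and was -0.23 without control replicate 4. mt-Tp alone gave 31.8 to 44.9% of the tRNA sum over the 8 libraries, and mt-Tp, mt-Tc and mt-Tn together gave 78.3 to 88.0%.

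mt-Tp had 413, 454, 339 and 380 FPKM with melatonin and 520, 419, 364 and 329 FPKM in control, from 422 to 697 fragments a library. mt-Tc had 308, 281, 199 and 262 FPKM with melatonin and 475, 260, 204 and 147 FPKM in control, and mt-Tn had 212, 224, 137 and 176 FPKM with melatonin and 348, 184, 153 and 96.6 FPKM in control. For these 3 genes control replicate 1 was the highest and control replicate 4 the lowest library. mt-Tc and mt-Tn lie 32 bases apart, the widest gap between neighbours of the annotation within the gene order, and their ratio was 1.26 to 1.49 with melatonin and 1.33 to 1.52 in control.

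All 3 of these genes are encoded on the minus strand. The 8 minus-strand tRNA genes summed to 705 to 995 FPKM with melatonin and 595 to 1373 FPKM in control. The 14 plus-strand tRNA genes summed to 63.1 to 201 FPKM with melatonin and 137 to 263 FPKM in control. Since strand use is not stated, fragments counted on a minus-strand tRNA may also stem from long RNAs of the other strand that run across it, and these cannot be told apart.

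Among the other tRNAs with a mean of at least 1 FPKM, mt-Tl2 (the second leucine tRNA, plus strand) was the highest. It had 148, 92.3, 40.2 and 79.4 FPKM with melatonin and 178, 101, 98.4 and 94.0 FPKM in control, so melatonin replicate 3 was low and control replicate 1 high. mt-Ty (tyrosine, minus strand) had 37.9, 29.1, 28.2 and 18.9 FPKM with melatonin and 29.8, 23.1, 14.9 and 16.9 FPKM in control. mt-Th (histidine) had 32.2, 20.1, 7.24 and 22.4 FPKM with melatonin and 28.3, 22.2, 17.6 and 19.7 FPKM in control. mt-Ts2 (serine) had 18.6, 15.8, 7.31 and 17.5 FPKM with melatonin and 46.6, 13.6, 14.6 and 13.9 FPKM in control. mt-Th, mt-Ts2 and mt-Tl2 follow each other on the plus strand between mt-Nd4 and mt-Nd5, and melatonin replicate 3 was the lowest library for all 3.

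mt-Te (glutamate), mt-Tw (tryptophan) and mt-Tt (threonine) were near the limit of detection. mt-Te had 11 fragments over the melatonin and 16 over the control libraries, mt-Tw 6 over melatonin and 13 over control, and mt-Tt 12 over melatonin and 1 over control. Of the 12 fragments of mt-Tt, 11 were in melatonin replicate 2. Of the 22 tRNA genes, 13 had fewer than 20 fragments over the 8 libraries together.

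Detection of tRNAs was also low within the copied stretch. Of the 5 tRNA genes there, mt-Tr (arginine) had 1 fragment, in control replicate 4, and mt-Ts1 (serine), mt-Td (aspartate), mt-Tk (lysine) and mt-Tg (glycine) had 0 in all 8 libraries. Outside the stretch mt-Tf (phenylalanine) was at 0 in all libraries, and mt-Tv, mt-Ti, mt-Tq, mt-Tm and mt-Ta had 2 to 9 fragments in total. A count of 0 allows 3 fragments, which for mt-Tk is 1.95 to 2.64 FPKM depending on the library. A low level was therefore not detectable at this depth. The part of library preparation and of fragment assignment in these low counts was not tested. Fragments of tRNAs and of longer RNAs across the same bases cannot be told apart, so FPKM of tRNA genes cannot be read as tRNA abundance.

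mt-Tl1 was the gene in which the groups separated. It had 2.82, 3.72, 3.59 and 3.13 FPKM with melatonin and 7.33, 6.11, 4.24 and 7.87 FPKM in control, so all melatonin libraries lay below all control libraries. The values stand for 5, 6, 5 and 5 fragments with melatonin and 11, 8, 7 and 13 fragments in control. In total this was 21 fragments with melatonin (exact 95% Poisson interval 13 to 32.1) and 39 in control (27.7 to 53.3), intervals that cover counting error only and overlap. Its log2 fold change was -0.75 ± 0.16 (SE; limma with Benjamini-Hochberg adjustment, adjusted p = 0.121), so it did not pass the threshold. Non-overlap with melatonin lower was found in 5.94% of all tested genes, and with melatonin higher in 5.79%. The neighbours of mt-Tl1, mt-Rnr2 upstream and mt-Nd1 downstream with no base between them, overlapped between the groups.

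Across the genome, 26 of the 37 genes reached a mean of 1 FPKM and were tested, namely the 13 protein genes, both rRNAs and 11 tRNAs. None of the 26 passed the threshold of an adjusted p of 0.05 in limma with Benjamini-Hochberg adjustment over all 14738 tested genes, where 0% of all genes passed. limma-voom on the recovered fragments also called 0 of the 26. At an unadjusted p under 0.05 in limma there was 1 of the 26, mt-Tl1, lower with melatonin, where 19.1% of all tested genes were found (9.4% higher and 9.74% lower). This count moved with the processing. After removal of the GC content and length trends of each library it was 6, all lower with melatonin, beside 2499 of 14392 genes. With the replicate number as a block it was 4, beside 2776 of 14738, and without control replicate 1 it was 5, beside 2655 of 14738. A filter of 5 FPKM kept 22 of the genes and gave 0, beside 2006 of 8855.

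Of the 26, 18 had a negative and 8 a positive log2 fold change, where 52.5% of all tested genes were negative and 47.5% positive. mt-Co1 was at -0.00 ± 0.14 (SE; limma adjusted p = 0.994). The median of the 26 was -0.09, beside -0.01 over all tested genes. The 13 protein genes had a median of -0.10 and 11 negative values, from -0.60 (mt-Nd4l) to 0.07 (mt-Atp6 and mt-Co2). For the 5 wholly outside the copied stretch the median was -0.14, with all 5 negative, from -0.17 ± 0.12 for mt-Cytb (adjusted p = 0.469) to -0.05 ± 0.14 for mt-Nd1 (adjusted p = 0.873). Without control replicate 1, 2 of these 5 genes were negative and the median of the 13 was -0.004, and without control replicate 4 the median of the 13 was -0.23. These genes share long precursor RNAs and libraries, so they are not independent.

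The count of negative protein genes moved with the processing. It was 13 of 13 after removal of the GC content and length trends of each library, where the median was -0.22. With control replicate 1 left out it was 7, and with melatonin replicate 3 left out it was 8. It was 9 on the TPM scale and when libraries were scaled to genes outside the mitochondrial genome, scalings that also moved the median of all tested genes to 0.05 and 0.04. Quantile normalization gave 7, but sets mt-Co1, mt-Cytb and mt-Nd1 to exactly 0.

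**Figure D4:**
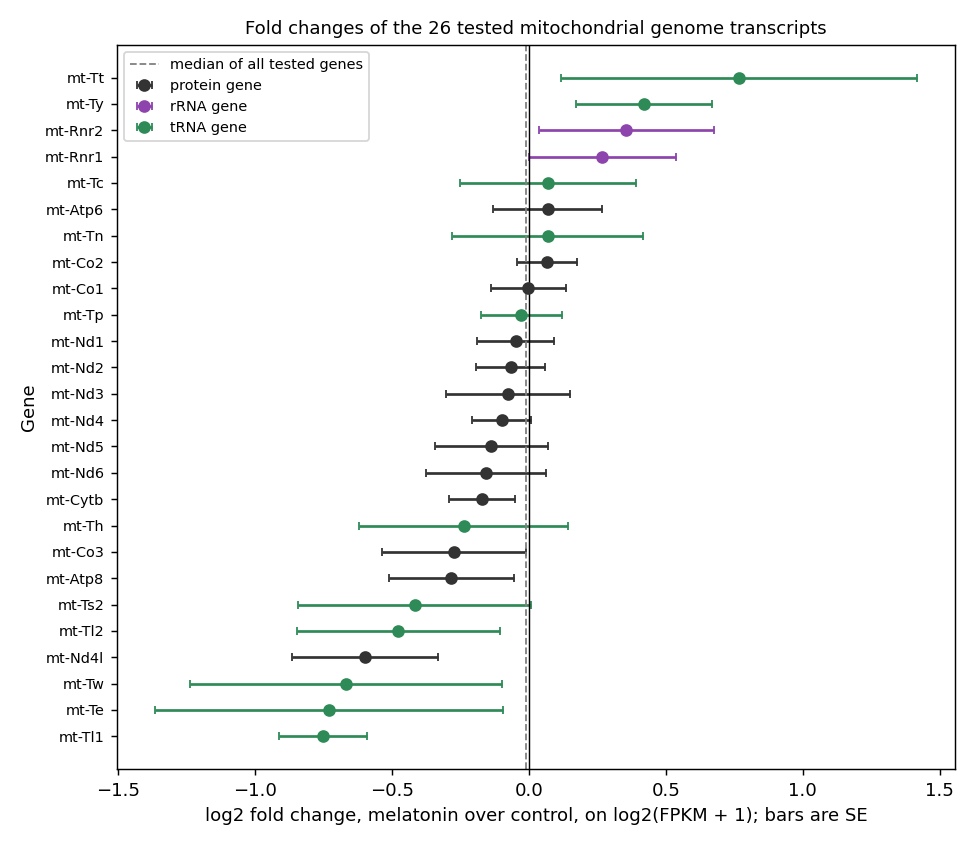
log2 fold change of melatonin over control (horizontal axis, on log2(FPKM + 1)) with its SE for the 26 tested genes, ordered from the highest at the top; the dashed line is the median of all tested genes. mt-Tl1 is at the bottom at -0.75, and most protein genes lie between -0.28 and 0.07.

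The highest and lowest values fell in a few libraries. Melatonin replicate 2 was the highest library for 6 of the 26 tested genes and control replicate 1 for 15. Melatonin replicate 3 was the lowest library for 12 and control replicate 4 for 9, while for 3 of the 26, mt-Te, mt-Tw and mt-Tt, several libraries tied at 0. Among the 13 protein genes, melatonin replicate 2 was highest for 4 and control replicate 1 for 8, while melatonin replicate 3 was lowest for 9 and control replicate 4 for 4.

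The range over the 8 libraries differed between genes. The highest library was 1.27-fold above the lowest for mt-Co1, 1.43-fold for mt-Cytb, 1.36-fold for mt-Nd2 and 1.58-fold for mt-Tp, the tRNA gene with the highest FPKM. It was 2.83-fold for mt-Rnr2, 3.60-fold for mt-Tn, 3.22-fold for mt-Tc and 6.37-fold for mt-Ts2. mt-Nd5 and mt-Nd6 spread over 2.07-fold and 2.23-fold.

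**Figure D5:**
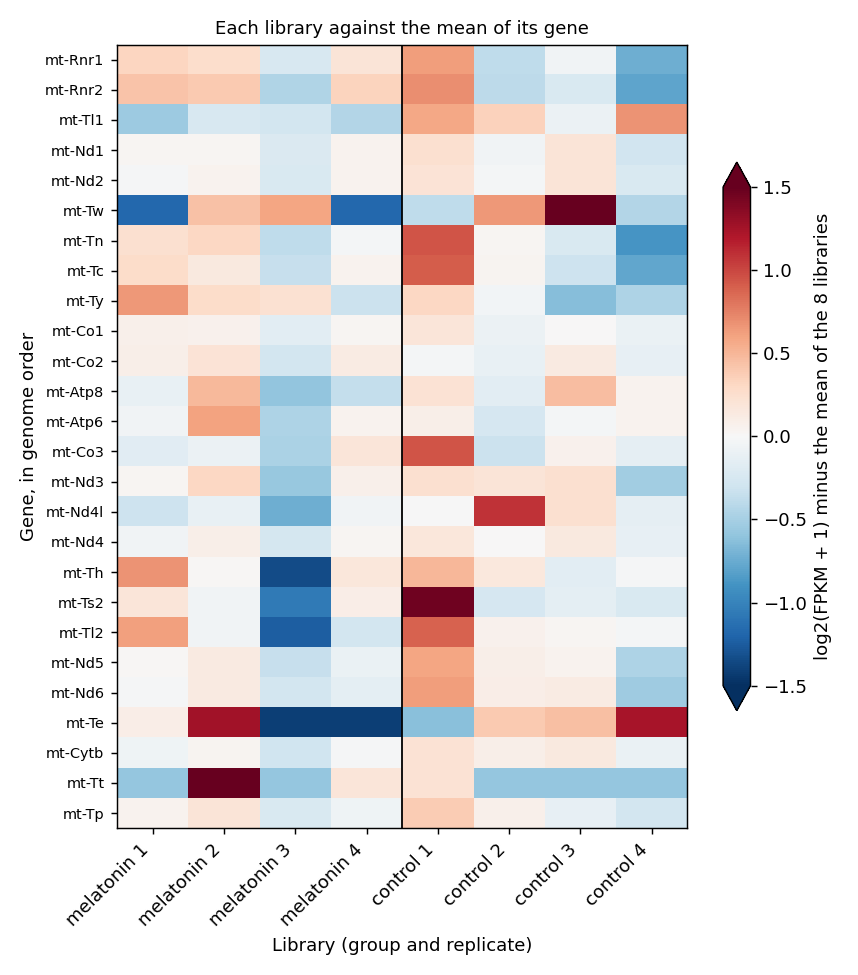
log2(FPKM + 1) of the 26 tested genes (rows, genome order) in each library (columns, melatonin left of the line and control right of it), after subtraction of the gene's mean over the 8 libraries; the colour scale ends at 1.5 in each direction. Control replicate 1 is red for most genes, and melatonin replicate 3 and control replicate 4 are blue for most.

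Ratios between genes within a library do not depend on how the library is scaled. Of the 78 pairs of protein genes, the ratio separated the groups without overlap in 5, or 6.41% of pairs. The pairs share genes, and 3 of the 5 involve mt-Cytb. The ratio of mt-Co1 to mt-Cytb was 2.31 to 2.50 with melatonin and 2.03 to 2.27 in control. The ratio of mt-Nd4 to mt-Cytb was 0.389 to 0.401 with melatonin and 0.367 to 0.387 in control, and that of mt-Co2 to mt-Cytb was 0.0417 to 0.0463 with melatonin and 0.0347 to 0.0410 in control. The ratio of mt-Co2 to mt-Nd4l was 3.98 to 4.85 with melatonin and 1.51 to 3.54 in control. That of mt-Atp6 to mt-Atp8, which overlap, was 11.5 to 15.3 with melatonin and 7.64 to 10.9 in control. At least 1 gene lies wholly or partly in the copied stretch in all 5 pairs, as in 68 of the 78. These ratios were looked at with the values known, and no test was made. The share of pairs without overlap among other genes was not computed, so the 6.41% has no background beside it.

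The nuclear genes for copying, transcribing and processing the mitochondrial genome were taken from a list of 40 symbols, of which 39 were in the table and 38 were tested. Of the 38, 0 passed the threshold. At an unadjusted p under 0.05, limma found 3 higher and 5 lower with melatonin, where 9.4% of all tested genes were higher and 9.74% lower, so the list was near the background. The median log2 fold change was 0.03, with 22 positive and 16 negative, where 47.5% of all tested genes were positive. The groups did not overlap in 6 of the 38, and in 11.7% of all tested genes, again near the background.

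Polrmt, the mitochondrial RNA polymerase, averaged 11.5 ± 0.884 FPKM with melatonin and 12.9 ± 0.584 FPKM in control (log2 fold change -0.15, limma adjusted p = 0.242). Tfam, which packages mitochondrial DNA and starts its transcription, had 8.15, 8.35, 8.53 and 8.46 FPKM with melatonin and 9.90, 8.84, 10.3 and 10.1 FPKM in control. All melatonin libraries were below all control libraries, and the log2 fold change was -0.20 ± 0.05 (SE; limma adjusted p = 0.147). Mterf3, a negative regulator of mitochondrial transcription, had 5.98, 6.34, 6.22 and 6.17 FPKM with melatonin and 5.52, 4.67, 5.20 and 5.13 FPKM in control. Its melatonin libraries were all above its control libraries, with a log2 fold change of 0.23 ± 0.06 (SE; limma adjusted p = 0.138).

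Elac2, which cuts the 3′ ends of tRNAs out of precursors, averaged 15.9 ± 0.943 FPKM with melatonin and 18.2 ± 1.14 FPKM in control (log2 fold change -0.18, limma adjusted p = 0.179). Mtpap, the mitochondrial poly(A) polymerase, averaged 13.4 ± 0.686 FPKM with melatonin and 11.7 ± 0.868 FPKM in control (0.18, adjusted p = 0.180). Lrpprc, which with Slirp stabilizes mitochondrial mRNAs, averaged 13.4 ± 2.19 FPKM with melatonin and 13.9 ± 1.95 FPKM in control (-0.06, adjusted p = 0.823). Slirp was at 0.712 ± 0.105 FPKM with melatonin and 0.729 ± 0.126 FPKM in control, and was not tested (SD, n = 4 each throughout).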

How the data were processed

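Total RNA of whole follicles was sequenced in 8 libraries; Trizol extraction and a NEBNext Ultra RNA kit are named in the labels' protocols. Per the submitters' processing notes, the aligner was HISAT2 2.0.5 and the genome build mm10. How fragments were counted, with which annotation and strand setting, and what was done with multiply matching reads is not stated in the labels or headers.

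Per the file headers, the authors deposited FPKM per gene. With exon lengths from GENCODE M21, which matched 54409 of 55157 identifiers, 98.7 to 98.9% of low values (up to 30 fragments) were whole fragments within 0.05, and every value above 0 of the 37 genes was whole. Tested on the values, the 8 libraries already share the same median-ratio factor, so the FPKM are relative to the typical gene and not to the library total. The 8 sample files differed from the series table in 0 cells, and 0 columns lacked a sample.

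The 14738 genes whose mean reached 1 FPKM entered limma 3.58.1 (R 4.3.3) with its trended empirical Bayes variances. Values were log2(FPKM + 1), a scale that understates changes of low genes. The design had group as its single term, p-values were Benjamini-Hochberg adjusted over all tested genes, and the threshold was 0.05. The test was checked on simulated data. Class sums, complexes, ratios and list medians were described without a test. Windows of 50 bases of each gene were searched in all GENCODE M21 transcripts, and nuclear copies were compared base by base without gaps.

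All genes whose names start with mt- are reported; tRNAs with a mean of at least 1 FPKM, the 7 chromosome 1 copies, and, from the nuclear list, the 4 genes with the smallest p and Polrmt, Tfam, Lrpprc and Slirp are given with values. Other copies were added after their sequences were compared. The members and lists were chosen with earlier results of these data known. Alternatives were a pseudocount of 0.1, no filter or a filter of 5 FPKM, array weights, the replicate number as a block, trends with GC content and exon length removed per library (splines with 5 degrees of freedom), limma-voom on recovered fragments, scaling to genes outside the mitochondrial genome, TPM, quantile normalization, median-ratio scaling and leaving out each library. Scaling to recovered library totals, sums and medians over the 5 genes outside the copied stretch, a sum with the 7 copies and a tRNA sum without mt-Tp were added after the data were seen. Median-ratio scaling in effect repeats the main fit, since the libraries already share the same factor. Python 3.11.15, numpy 2.4.6, pandas 2.3.3, scipy 1.17.1 and matplotlib 3.10.9 were used.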

Additional observations from a re-analysis of the deposited data

Results flagged for a closer look

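Among 58 groups of 4 libraries (26 tested genes and the class sums in each group), 7 had a library whose gap to the nearest other exceeded Dixon's critical value at the 95% level, where chance flags about 1 in 20 groups. With melatonin, replicate 3 was apart and low for mt-Rnr2, at 102 FPKM beside 176 to 188 FPKM in the other melatonin libraries. It was also apart and low for mt-Nd1, at 2511 FPKM beside 2969 to 3035 FPKM. For mt-Tt, melatonin replicate 2 was apart and high at 7.63 FPKM, or 11 fragments, beside at most 0.701 FPKM. The mean of mt-Tt reached the 1 FPKM filter through this library, since the other 7 libraries averaged 0.207 FPKM. In control, replicate 1 was apart and high for mt-Ts2, at 46.6 FPKM beside 13.6 to 14.6 FPKM, and for mt-Tl2, at 178 FPKM beside 94.0 to 101 FPKM. Control replicate 4 was apart and low for mt-Nd3, at 8.87 FPKM beside 15.1 to 15.8 FPKM. Control replicate 1 was apart for mt-Tt at 0.746 FPKM, which is 1 fragment, with the other control libraries at 0. Without mt-Tt, 5 such cases are left.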

How the results depend on the processing

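The count of the 26 genes that passed was 0 under every alternative run, as was that of the nuclear list; the smallest adjusted p of a mitochondrial gene ranged from 0.0876 (array weights) to 0.313. Over all genes, 1 passed with no filter and 1 with the replicate block with GC and length correction, and 0 to 1 when a library was left out (1 without control replicate 1). Signs turned for genes near 0 in log2 fold change. They also turned for mt-Th, mt-Nd6 and mt-Nd5, which stood at -0.24, -0.16 and -0.14 in the main fit. With GC and length correction, with or without the replicate block, mt-Co2 was at -0.040, mt-Atp6 at -0.064, mt-Tc at -0.20 and mt-Tn at -0.22. On the TPM scale and when scaled to genes outside the mitochondrial genome alike, mt-Co1 was at 0.057 and mt-Nd1 at 0.011, while mt-Tp was at 0.033 on the TPM scale and 0.032 in the other scaling, with the median of all genes at 0.05 on the TPM scale and 0.04 with that scaling. mt-Co1 was at 0.015 with array weights and 0.016 with library totals, and quantile normalization gave 0.0033 for mt-Nd6 and 0.084 for mt-Tp. Leaving out 1 library gave -0.038 to 0.059 for mt-Co1, -0.15 to 0.022 for mt-Nd1, -0.12 to 0.23 for mt-Atp6, -0.26 to 0.10 for mt-Nd3, -0.31 to 0.037 for mt-Nd5, -0.36 to 0.027 for mt-Nd6, -0.18 to 0.38 for mt-Tc, -0.22 to 0.40 for mt-Tn, -0.50 to 0.17 for mt-Th and -0.12 to 0.10 for mt-Tp. The cause was not tested. Over all tested genes, the deviations of same-numbered libraries had correlations of 0.0007, -0.10, 0.15 and 0.04. For 2 of 4 melatonin libraries the best correlation was with their own number. These values do not settle whether the numbers pair libraries. The replicate block called 0 genes, as did the main fit. At an unadjusted p under 0.05 in limma, the block found 4 of the 26 and the main fit 1. Over all genes the block found 2776 and the main fit 2821. Depth limits the tRNAs with few fragments, and the part of library preparation in their counts was not tested.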
